A study of Arabidopsis thaliana with 36 samples.

Results

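Seedlings lacking either of 2 regulators of heat stress (HS) memory were compared after recurrent HS: *cdk8* and *hsfa2*, each sampled as 3 libraries after priming and triggering (P + T). The comparison uses the 6 P + T libraries of these mutants out of 36 libraries in the series, chosen by their genotype and treatment labels alone. *cdk8* carries the GABI_564F11 T-DNA insertion in *CDK8*, and *hsfa2* (*hsfa2-1*) carries the SALK_008978 T-DNA insertion in *HSFA2*. Each mutant is thus represented by 1 insertion allele, in the Col-0 background, and Col-0 itself served as wild type. All seedlings grew on MS plates at 23 °C. A P + T seedling received 1 h at 37 °C on day 5 (P) and again on day 7 (T). Seedlings with the day 5 HS alone (P), the day 7 HS alone (T) or no HS (NHS) were the other treatments, and every sample was taken on day 7, so that the *cdk8* and *hsfa2* libraries at P + T share their age and heat history. Poly(A) RNA of whole seedlings was sequenced, and the number of read pairs assigned to each gene was deposited.

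CDK8 is the kinase of the Mediator kinase module, which sits between gene-specific transcription factors and RNA polymerase II and can hold back or promote transcription. HSFA2 is a heat shock factor that is itself made during HS, binds heat shock elements in promoters and keeps heat-induced genes active after the stress. Genes with type II memory respond more strongly to a second HS than to the first. +/++ genes already respond to a single HS, whereas 0/+ genes do so only on its repetition.

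Counted read pairs ranged between 29409330 and 30680023 in the 9 P + T libraries, so that 1 unit of normalised abundance (CPM, read pairs of a gene per 1e6 pairs) stood for between 20.8 and 26.4 read pairs. CPM values below are scaled by library size and TMM factors. *CDK8* was at 5.14, 4.48 and 4.91 CPM in *cdk8*, against 27.7, 24.6 and 27.2 CPM in *hsfa2*, and Col-0 had 30.2, 23.1 and 28.3 CPM. The *HSFA2* transcript did not pass the test between the mutants, although their libraries did not overlap, as in 40.7% of all genes tested. It was at 1035, 1261 and 1364 CPM in *cdk8*, against 804, 964 and 969.9 CPM in *hsfa2*, while Col-0 had 3309, 3929 and 4062 CPM (log2 fold change, log2FC, of *cdk8* over *hsfa2* 0.42 ± 0.62 SE, adjusted p = 0.682, edgeR quasi-likelihood test). In the fit of the 6 libraries alone that difference had an adjusted p of 0.0352. Counts per gene do not show on which side of an insertion the reads lie, so this count is no check of the *hsfa2* label. The labels call the 3 libraries of a group biological replicates, with no word on separate plates or growth batches. Unless said otherwise, p-values rest on the spread between libraries within groups, estimated in 1 model of all 36 libraries.

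The mutants differed at many genes after recurrent HS, and the difference was lopsided. Of 20847 genes tested, 442 were called higher in *cdk8* than in *hsfa2* (2.12% of genes tested) and 1304 were called lower (6.26%), a call being an adjusted p below 0.05 with an absolute log2FC above 1. At a log2FC beyond 2 in either direction lay 153 of the higher and 430 of the lower genes. Scaling by library size alone moved the median log2FC of all genes by 0.18 and gave 706 higher and 1018 lower genes, so that 41.0% of the calls were higher in *cdk8* in place of 25.3%. Among these calls the direction of the excess was thus kept while its size depended on the scaling. By adjusted p alone the direction turned. There 2175 genes were higher and 2827 lower with TMM, against 4981 higher and 1859 lower with library size alone.

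**Figure D1:**
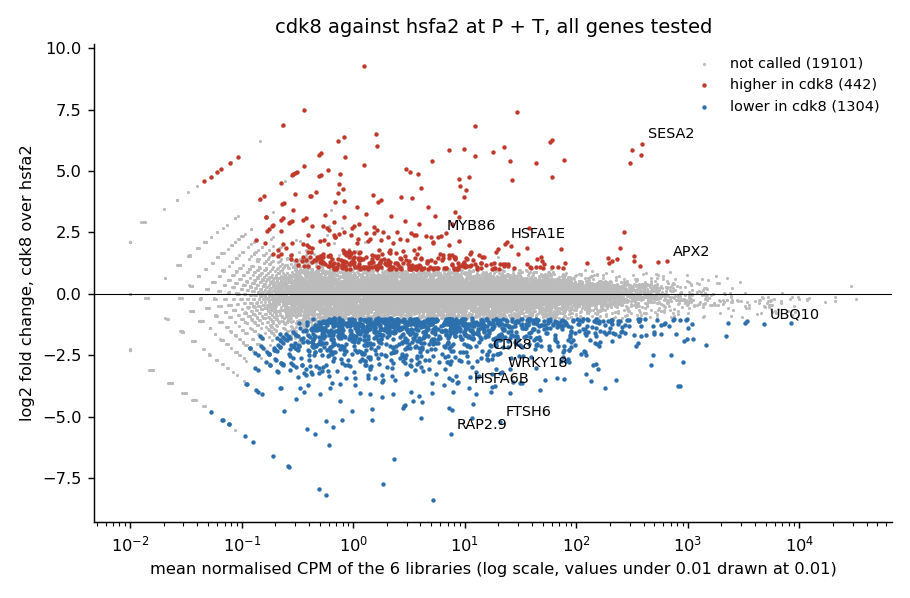
Each point is 1 of the genes tested, by mean normalised CPM of the 6 P + T libraries of *cdk8* and *hsfa2* (x, log scale) and fitted log2 fold change of *cdk8* over *hsfa2* (y). The 442 higher genes are red, the 1304 lower genes are blue and the rest grey; seed storage genes such as *SESA2* reach the highest folds, and *FTSH6* and *RAP2.9* are among the lowest of the labelled genes.

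Most of the lower genes were also lower after a single HS. In separate libraries at T, 482 genes were higher and 1166 lower in *cdk8* (2.31% and 5.59% of genes tested). Of the 1304 genes lower at P + T, 875 were lower at T too, which is 67.1% of the P + T list and 75.0% of the T list. Without heat on day 7 the counts were smaller and even, with 358 higher and 287 lower at P (1.72% and 1.38%) and 327 higher and 315 lower at NHS (1.57% and 1.51%). The P + T list shared 184 lower genes with P and 189 with NHS, that is 14.1% and 14.5% of its members. Among the 442 higher genes the shared numbers were closer to each other, at 246 for T, 168 for P and 158 for NHS (55.7%, 38.0% and 35.7%). No gene was called in opposite directions at P + T and T.

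How Col-0 itself responds to heat separated these genes further. Classes were formed from contrasts between Col-0 libraries alone. Those calls came from the same model of 36 libraries, so its filter, scaling and estimate of the spread also use the mutant libraries. Early HS genes, induced by T and not further by priming, differed in their calls from all genes: 401 of 1657 were called lower in *cdk8* and 35 higher, which is 24.2% and 2.11% against the 6.26% and 2.12% of all genes. Their median log2FC was -0.29, against 0.00 over all genes, and it was -0.10 with scaling by library size. Heat-repressed genes were near the background, with 192 of 2700 called lower (7.11%) and 55 higher (2.04%).

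Memory genes split both ways. Of the 152 +/++ genes 26 were higher and 34 lower in *cdk8* than in *hsfa2* (17.1% and 22.4%). Of the 171 0/+ genes 30 were higher and 37 lower (17.5% and 21.6%). With scaling by library size alone the balance of calls turned, to 42 higher and 33 lower in the +/++ class and 44 higher and 32 lower in the 0/+ class. The median log2FC of both classes was above 0, at 0.30 and 0.36, since many members had a positive log2FC below the fold threshold: with the adjusted p alone, 65 genes were higher and 42 lower in each class, against 10.4% and 13.6% of all genes. In Col-0 these genes are by definition the ones with hyper-induction, so their class says nothing about either mutant.

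The higher and the lower memory genes differed in what was seen after a single HS. Of the 34 +/++ genes lower at P + T, 29 were already called lower after the single HS (85.3%, median log2FC at T -2.37), and of the 37 lower 0/+ genes 20 were (54.1%, median -1.26). Of the higher memory genes, 5 of 26 +/++ genes and 7 of 30 0/+ genes were called higher at T (19.2% and 23.3%), with medians of 0.48 and 0.62. The higher genes also had smaller folds at P + T (medians 1.38 and 1.36, against -2.52 and -1.64 for the lower genes), and at NHS few of either kind were called (2 of 26, 2 of 30, 2 of 34 and 0 of 37).

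**Figure D2:**
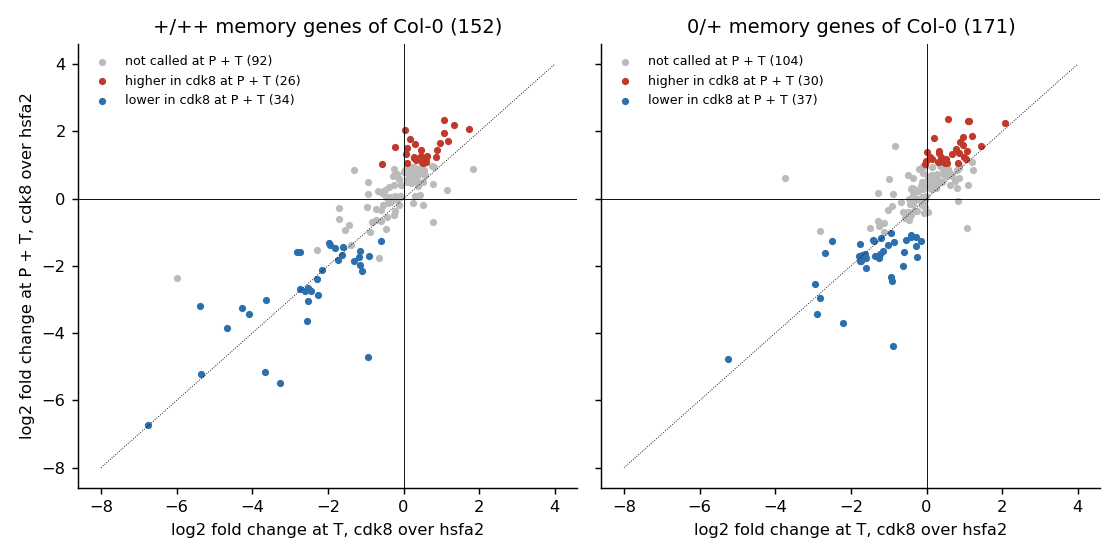
Each point is a memory gene of Col-0, +/++ on the left and 0/+ on the right, by log2 fold change of *cdk8* over *hsfa2* at T (x) and at P + T (y); the dotted line marks equal values. Genes lower at P + T (blue) reach far to the left, whereas genes higher at P + T (red) have medians of 0.48 (+/++) and 0.62 (0/+) on the x axis.

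The difference between P + T and T was also tested itself. The *cdk8* to *hsfa2* log2FC was significantly larger at P + T than at T by more than 1 for 22 of the genes tested and smaller for 13 (0.106% and 0.0624%). Among +/++ genes 5 were larger and 0 smaller, and among 0/+ genes 7 were larger and 1 smaller. This contrast contains the same P + T libraries as the comparison above and is not separate support for it. The count of 13 depends on the fit: it was 20 with replicate number as a block, 21 in DESeq2, 2 with only the 12 libraries concerned and 3 without *cdk8* T replicate 3.

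Of the type II memory genes *APX2*, *MIPS2*, *LACS9*, *LPAT5* and *XTR6*, each was lower in every library of both mutants than in every Col-0 library. *APX2*, a cytosolic ascorbate peroxidase that removes hydrogen peroxide, had 818, 814 and 1157 CPM in *cdk8*, against 365, 356 and 396 CPM in *hsfa2*. The groups did not overlap (log2FC 1.32 ± 0.23 SE, adjusted p = 6.34e-05), and all 6 values lay below the 2403, 2073 and 2602 CPM of Col-0. After T alone the *APX2* means were 172 CPM in *cdk8*, 164 CPM in *hsfa2* and 347 CPM in Col-0, a log2FC between the mutants of 0.07.

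*MIPS2*, which makes the inositol phosphate precursor of galactinol, had 842, 807 and 1016 CPM in *cdk8*, against 442, 431 and 574 CPM in *hsfa2*, while Col-0 had 2819, 2521 and 3145 CPM (log2FC 0.88 ± 0.13, adjusted p = 2.96e-06). *LACS9*, a long-chain acyl-CoA synthetase, had 81.4, 78.7 and 91.9 CPM in *cdk8*, against 53.4, 47.3 and 58.6 CPM in *hsfa2* and 217 ± 28.3 CPM in Col-0 (SD, n = 3; log2FC 0.66 ± 0.10, edgeR adjusted p = 1.03e-05). Every *cdk8* library was above every *hsfa2* library for these genes, though neither reached a 2-fold difference on the fitted scale.

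*LPAT5*, a lysophosphatidyl acyltransferase of membrane lipid synthesis, changed its order with priming. After T it averaged 5.69 CPM in *cdk8* and 11.3 CPM in *hsfa2*, whereas at P + T it had 22.7, 19.9 and 24.4 CPM in *cdk8* and 15.2, 14.6 and 14.8 CPM in *hsfa2*. The log2FC was -0.99 at T and 0.59 at P + T, and the difference of 1.58 ± 0.18 SE passed the test (edgeR adjusted p = 4.04e-06). In Col-0 *LPAT5* reached 182, 171 and 188 CPM at P + T, far above either mutant.

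*XTR6*, a xyloglucan endotransglucosylase that remodels cell walls, went the other way. It had 163, 162 and 132 CPM in *cdk8*, against 292, 282 and 305 CPM in *hsfa2*, with 823, 928 and 906 CPM in Col-0. Its log2FC of -0.94 ± 0.31 had an adjusted p of 0.0262, which lay between 0.0501 and 0.0995 when any 1 of the 6 libraries was left out, and was 0.0718 with scaling by library size. By adjusted p, 4 of the 5 memory genes were thus higher in *cdk8*, 1 of them by over 2-fold, and *XTR6* was lower.

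**Figure D3:**
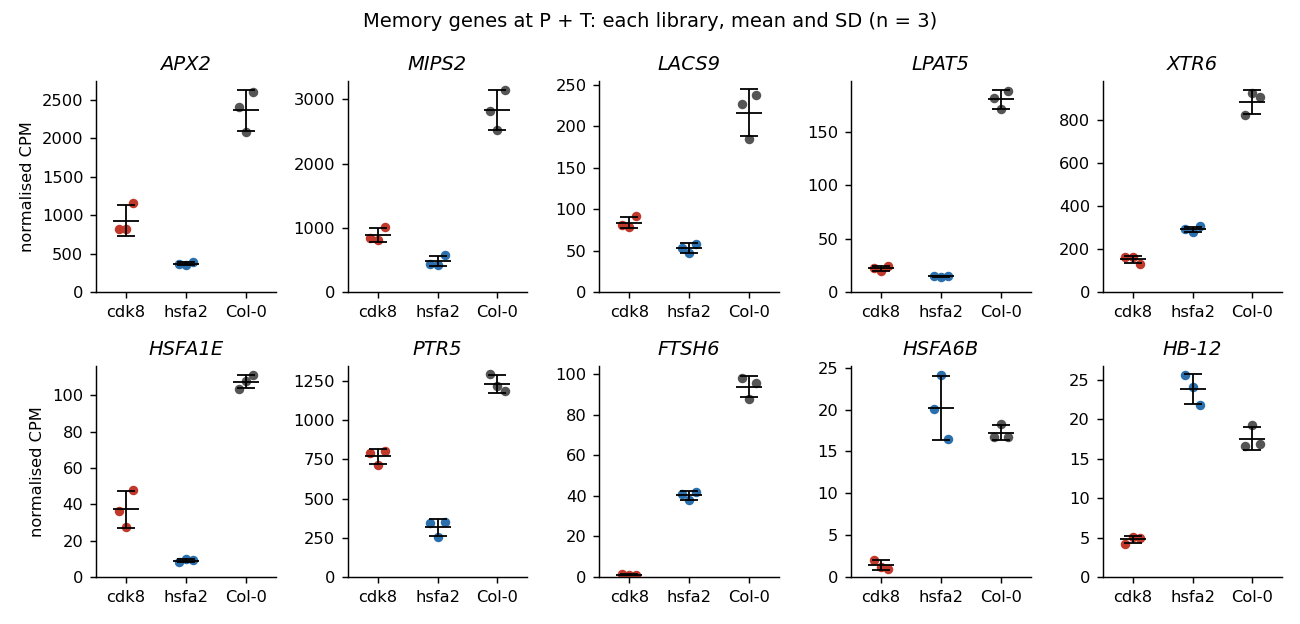
Normalised CPM at P + T of 10 memory genes in each library of *cdk8*, *hsfa2* and Col-0 (points), with the mean and SD of 3 libraries. *APX2*, *MIPS2*, *LACS9*, *LPAT5*, *HSFA1E* and *PTR5* are higher in *cdk8* than in *hsfa2* and highest in Col-0, whereas *XTR6*, *FTSH6*, *HSFA6B* and *HB-12* are lower in *cdk8*.

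Further memory genes showed larger gaps. *HSFA1E*, a heat shock factor of the A1 class that starts the heat response, had 36.3, 27.3 and 48.0 CPM in *cdk8*, against 8.14, 9.63 and 9.23 CPM in *hsfa2*, while Col-0 had 104, 108 and 111 CPM (log2FC 2.05 ± 0.15, adjusted p = 3.82e-12). After T it averaged 7.59 CPM in *cdk8* and 7.37 CPM in *hsfa2*, and the change in log2FC between T and P + T was 2.00 ± 0.21 (adjusted p = 1.86e-06). *HSFA1E* in *hsfa2* was therefore near its T level after recurrent HS, and in *cdk8* it was about 4.13-fold above *hsfa2*.

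Several other +/++ and 0/+ genes were higher in *cdk8*. *PTR5*, a peptide transporter, had 791, 713 and 803 CPM in *cdk8*, against 345, 256 and 351 CPM in *hsfa2* and a mean of 1233 CPM in Col-0. *MYB86*, a MYB transcription factor, averaged 10.2 ± 0.909 CPM in *cdk8* and 1.99 ± 0.274 CPM in *hsfa2* (SD, n = 3 each), with 16.3 CPM in Col-0. The receptor-like kinase gene *SRF2* had 7.54 CPM in *cdk8* and 1.49 CPM in *hsfa2*, and the pentatricopeptide repeat gene *AT4G14170* had 8.20 CPM in *cdk8* and 1.67 CPM in *hsfa2*. Log2FCs of the 3 last genes lay between 2.30 and 2.36, and no library of one mutant overlapped the other.

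On the lower side stood *FTSH6*, a chloroplast protease gene. It had 1.44, 1.03 and 0.77 CPM in *cdk8*, against 40.9, 37.9 and 42.1 CPM in *hsfa2*, while Col-0 had 98.4, 88.1 and 95.6 CPM, a 37.0-fold difference between the mutants (log2FC -5.21 ± 0.25, adjusted p = 8.74e-16). The gap was of the same kind after T, with means of 0.656 CPM in *cdk8* and 27.2 CPM in *hsfa2*. *HB-12*, a homeodomain factor of water-deficit responses, averaged 4.75 CPM in *cdk8* and 23.9 CPM in *hsfa2*, and *ZF2*, a zinc finger repressor, averaged 16.9 CPM in *cdk8* and 71.0 CPM in *hsfa2* (log2FC -2.33 and -2.07). For *ZF2* *hsfa2* was above Col-0, which had 56.8 CPM.

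The heat shock factor family, whose members bind heat shock elements, was divided between the mutants. Of 19 tested, 7 were called lower and 1 higher in *cdk8*, against 6.26% and 2.12% of all genes. By adjusted p alone 8 were lower and 5 higher, against 13.6% and 10.4% of all genes. The median of -0.12 turned to 0.06 with scaling by library size. Called lower were *HSFA6B*, *HSFA3*, *HSFA7A*, *HSFA7B*, *HSFA6A*, *HSFB1* and *HSFB2A*, with log2FCs from -3.84 to -1.41. Higher by adjusted p were *HSFA1E*, *HSFA4A*, *HSFA4C*, *HSFA1D* and *HSFB4*, of which the last 4 had log2FCs from 0.46 to 0.86.

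*HSFA3*, which acts with HSFA2 in complexes at memory genes, averaged 19.1 ± 2.88 CPM in *cdk8* and 127 ± 10.9 CPM in *hsfa2* (SD, n = 3 each). Col-0 lay between them, at 66.3 ± 5.18 CPM. The log2FC was -2.73 ± 0.15 (adjusted p = 1.73e-14), and -3.17 at T. *HSFA7B*, an HSF of the late heat response, had 137, 144 and 161 CPM in *cdk8*, against 789.9, 771 and 922 CPM in *hsfa2*, while Col-0 had 441, 427 and 499 CPM. *HSFA6B*, an HSF of the abscisic acid response and itself a +/++ gene, had 2.08, 1.23 and 0.892 CPM in *cdk8*, against 20.1, 24.1 and 16.5 CPM in *hsfa2*, near the 17.3 CPM mean of Col-0. *HSFA3* and *HSFA7B* were thus above Col-0 in *hsfa2* and below it in *cdk8*.

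Of 35 large chaperones and co-chaperones 3 were called lower and 0 higher, near the 6.26% and 2.12% of all genes, and 9 and 4 passed the adjusted p alone (median -0.24, against 0.00 over all genes). *HSP101*, the disaggregase of thermotolerance, had 13622, 15264 and 16088 CPM in *cdk8*, against 17432, 18127 and 20306 CPM in *hsfa2* (log2FC -0.31 ± 0.51, adjusted p = 0.711). *HSP70*, an inducible cytosolic chaperone, had 17488, 18888 and 19388 CPM in *cdk8*, against 21450.0, 21944 and 25254 CPM in *hsfa2* (log2FC -0.30 ± 0.44, adjusted p = 0.678). For both, each *cdk8* library was below each *hsfa2* library, but the difference did not pass the test. Such a lack of overlap was seen in 40.7% of all genes tested. In Col-0 the means were 15542 CPM for *HSP101* and 22868 CPM for *HSP70*.

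Cytosolic folding genes carried the 3 calls. The cytosolic Hsp70 gene *AT3G09440* averaged 5084 ± 448 CPM in *cdk8* and 11600.3 ± 878 CPM in *hsfa2* (SD, n = 3 each). *HSP90.3* averaged 1394 ± 106 CPM in *cdk8* and 3199.9 ± 331 CPM in *hsfa2*, with 1509 ± 109 CPM in Col-0, so that *hsfa2* stood apart there. The co-chaperone *ROF1*, an FKBP-type peptidyl-prolyl isomerase that binds HSP90 and HSFA2, had 1942, 2004 and 2477 CPM in *cdk8*, against 4477, 3979 and 5329 CPM in *hsfa2*. Log2FCs were between -1.20 and -1.10. In contrast, 2 chaperones of the endoplasmic reticulum were slightly higher in *cdk8*, *HSP90.7* by 0.54 and *BIP1* by 0.41 on the log2 scale. *HSP90.3*, *AT3G09440* and *BIP1* have close paralogues, and reads that map to more than 1 place are not in these counts.

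Small heat shock proteins, which keep denatured proteins soluble, had 2 of 17 called lower and 0 higher (median -0.53), against 6.26% and 2.12% of all genes. At P, 2 days after a single HS, 13 of the 17 were instead higher in *cdk8* and 0 lower (median 2.46), against 1.72% and 1.38% of all genes. *AT5G51440*, of the HSP20-like family, had 1694, 1914 and 2279.8 CPM in *cdk8*, against 4094, 4166 and 5170.2 CPM in *hsfa2*. Its log2FC of -1.19 had an adjusted p of 0.0245, which was 0.0541 in DESeq2 and between 0.0707 and 0.0891 without *cdk8* replicate 1, *cdk8* replicate 2 or *hsfa2* replicate 3. *AT2G19310* averaged 649.5 ± 154 CPM in *cdk8* and 1524 ± 309.7 CPM in *hsfa2* (log2FC -1.23 ± 0.26, edgeR adjusted p = 0.000746). *HSP21*, the chloroplast member, had a log2FC of 0.15. Beside the chaperones, *UBQ10*, a polyubiquitin gene, was at 2957, 2841 and 2901 CPM in *cdk8*, against 6322, 6770.4 and 7198 CPM in *hsfa2*, while the mutants had equal levels at NHS (1166 CPM in *cdk8* and 1169 CPM in *hsfa2*).

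**Figure D4:**
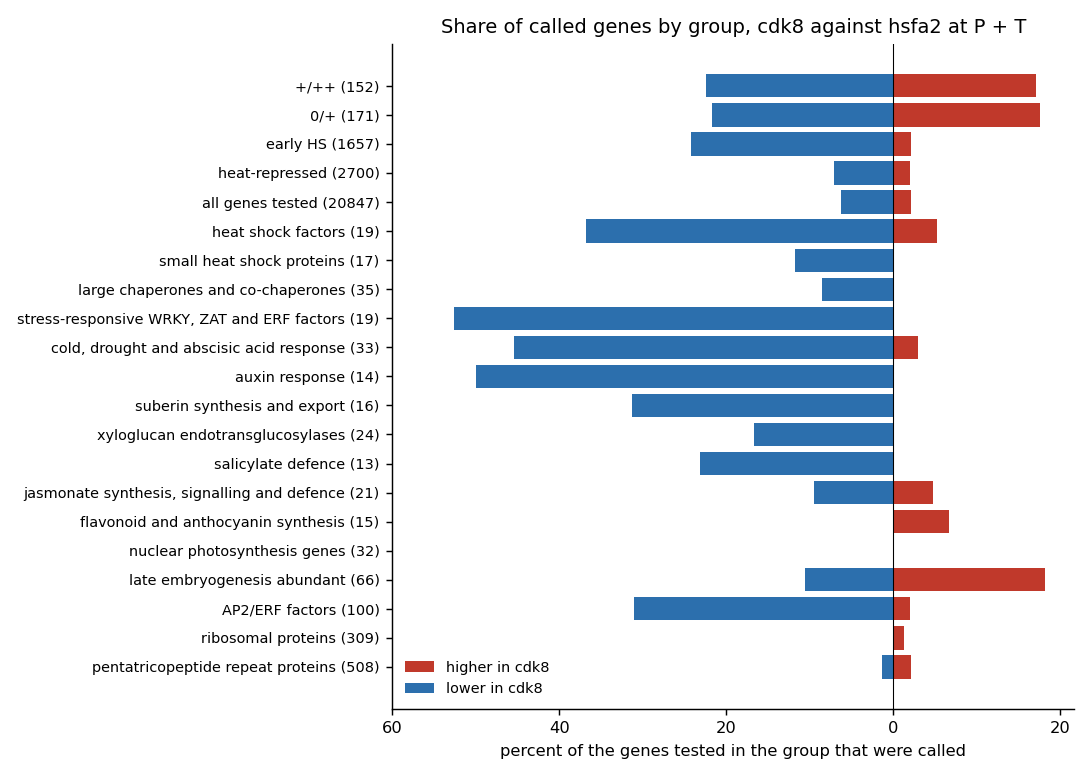
Percent of the genes tested in each heat class, gene list or family (number tested in brackets) that were called higher in *cdk8* (red, to the right) or lower in *cdk8* (blue, to the left) than in *hsfa2* at P + T. The longest blue bars are those of the stress-responsive WRKY, ZAT and ERF factors (10 of 19), the auxin genes (7 of 14) and the cold, drought and abscisic acid genes (15 of 33), against 6.26% of all genes tested.

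Of the gene lists, that of fast stress-responsive transcription factors had the largest share called lower in *cdk8*. The lists and their members were chosen with earlier results of these data known. Of 19 listed WRKY, ZAT and ERF genes 10 were called lower and 0 higher, against 6.26% and 2.12% of all genes. Their median log2FC was -1.70 (all genes 0.00). At T 12 of the 19 were called lower (5.59% of all genes), and the change between T and P + T was called for 0. These zinc finger, WRKY and ethylene response factors are induced within minutes by many stresses. *WRKY18* had 3.89, 5.43 and 3.28 CPM in *cdk8*, against 36.4, 36.4 and 42.8 CPM in *hsfa2*, near the 35.3 ± 7.00 CPM of Col-0 (SD, n = 3). Other members lower by over 2-fold were *ZAT7*, *ZAT6*, *ERF5*, *WRKY40*, *WRKY33*, *ERF104*, *ERF6*, *ZAT12* and *WRKY46*, with log2FCs from -4.17 to -1.70. *WRKY25* was at 0.25 and *WRKY54* at 0.90, and neither passed the test.

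The wider AP2/ERF family, by annotation text, had 31 of 100 members lower and 2 higher (median -0.60, and -0.41 with scaling by library size). *RAP2.9* had 0.491, 0.159 and 0.162 CPM in *cdk8*, against 13.3, 16.2 and 14.6 CPM in *hsfa2*, a 52.8-fold difference. *ERF53*, a drought- and heat-induced DREB factor, averaged 0.209 CPM in *cdk8* and 5.37 CPM in *hsfa2*. *AT1G71520*, of the same DNA-binding family, averaged 0.233 CPM in *cdk8* and 5.53 CPM in *hsfa2*. MYB factors had 22 of 129 lower and 3 higher, NAC factors 12 of 68 lower and 2 higher, and bHLH factors 5 of 109 lower and 4 higher, where 6.26% of all genes were lower and 2.12% higher. The whole WRKY family had 9 of 53 lower and 1 higher (median -0.26, and -0.07 with scaling by library size).

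Among called genes with at least 5 CPM in the higher mutant and no overlap between the mutants, 9 of the 10 with the largest folds downwards were early HS genes, *FTSH6* being the other. *AT4G19430*, an uncharacterised protein, had 2 reads in the 3 *cdk8* libraries together and 679 in the 3 *hsfa2* libraries, a ratio of 393 with a 95% counting interval of 108 to 3250. *SRO5*, a regulator of salt and oxidative stress responses, averaged 0.554 ± 0.176 CPM in *cdk8* and 13.9 ± 1.28 CPM in *hsfa2*. The basic leucine zipper gene *bZIP7* averaged 0.555 CPM in *cdk8* and 14.9 CPM in *hsfa2*, and *AT2G04135* averaged 0.661 CPM in *cdk8* and 22.6 CPM in *hsfa2*. *AT1G21945* and *AT5G27845*, also without an assigned function, had log2FCs of -5.04 and -4.59. Among heat-repressed genes the largest falls were of *OZF2*, a zinc finger gene (2.56 CPM in *cdk8* and 35.0 CPM in *hsfa2*), and of *PHI-1* (5.52 CPM in *cdk8* and 45.8 CPM in *hsfa2*).

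Genes of cold, drought and abscisic acid responses followed the same direction, also at T, where 14 of 33 were called lower (5.59% of all genes). Between T and P + T the change in log2FC was called for 0 of them. At P + T 15 of the 33 were called lower and 1 higher (median -0.99), against 6.26% and 2.12% of all genes. By adjusted p alone 20 were lower, where 13.6% of all genes were. They include factors (*RAP2.6*, *DREB2C* and *DREB2A*, log2FCs of -4.01, -1.91 and -1.62), the protein phosphatases of the HAI group, which restrain abscisic acid signalling (*HAI2*, *HAI1* and *HAI3*, -3.49, -2.68 and -2.45), and dehydrins that protect drying cells (*LTI30*, *ERD10*, *COR47* and *ERD14*, between -3.26 and -1.36). *RAP2.6* averaged 1.99 ± 0.680 CPM in *cdk8* and 32.1 ± 7.06 CPM in *hsfa2* (SD, n = 3 each), with 25.4 ± 2.25 CPM in Col-0. The exception was *RD20*, a caleosin, with 4.39 CPM in *cdk8* and 2.18 CPM in *hsfa2*. Its adjusted p of 0.0165 became 0.0723 without *cdk8* replicate 3, 0.0708 without *hsfa2* replicate 1 and 0.0547 without *hsfa2* replicate 2.

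Synthesis of galactinol and raffinose, sugars that accumulate in heat and drought, was split by gene. *GOLS2*, a galactinol synthase, had 36.8, 43.5 and 38.0 CPM in *cdk8*, against 196, 207 and 187 CPM in *hsfa2*, and Col-0 had 181, 204 and 193 CPM. The raffinose synthase *RS5* averaged 5.01 ± 0.449 CPM in *cdk8* and 14.8 ± 0.152 CPM in *hsfa2*. *RS4*, a stachyose synthase, was higher in *cdk8*, at 2.33 CPM against 0.487 CPM in *hsfa2* and 6.56 CPM in Col-0. Together with *MIPS2* the 9 genes of the list had 1 call up and 2 calls down, against 2.12% and 6.26% of all genes.

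Among hormone and cell wall lists, auxin response genes were lower in 7 of 14 cases and higher in 0 (median -0.84), against 6.26% and 2.12% of all genes. At T 7 of the 14 were called lower too (median -0.82), against 5.59% of all genes. The change between T and P + T was called for 0 of them. *GH3.3*, an enzyme that conjugates auxin to amino acids, averaged 6.05 ± 0.684 CPM in *cdk8* and 33.1 ± 2.62 CPM in *hsfa2* (SD, n = 3 each). *GH3.2* and the auxin repressors *IAA2*, *IAA29*, *IAA3* and *IAA1* had log2FCs from -2.18 to -1.14. *IAA5* was near the detection limit, with 1 read in *cdk8* and 31 in *hsfa2*. *IAA14* was at 0.57 (adjusted p = 0.00926).

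Among cell wall and barrier genes, expansins had 4 of 22 called lower and 1 higher, and pectin lyase-like and pectin methylesterase genes had 11 of 117 lower and 2 higher, against 6.26% and 2.12% of all genes. Xyloglucan endotransglucosylases had 4 of 24 called lower and 0 higher, among them *XTH16*, with 17.7 ± 0.912 CPM in *cdk8* and 77.7 ± 4.70 CPM in *hsfa2* (SD, n = 3 each), and the touch-induced *TCH4* at -1.85. Suberin genes had 5 of 16 lower and 0 higher, led by the half-transporter *ABCG6* (1.64 CPM in *cdk8* and 6.53 CPM in *hsfa2*) and the acyltransferase *GPAT5* (0.980 CPM in *cdk8* and 2.66 CPM in *hsfa2*). In both, *hsfa2* was also below Col-0, at 12.6 and 4.38 CPM.

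In the salicylate defence list 3 of 13 were lower, *SARD1* and *WRKY70*, which control salicylate responses, and the transporter *EDS5* (log2FCs of -2.49, -2.32 and -1.51), and 0 were higher. *SARD1* had an adjusted p of 0.00477, and of 0.0503 without *hsfa2* replicate 1. The jasmonate list had 2 of 21 lower and 1 higher, where 6.26% of all genes were lower and 2.12% higher. *LOX2*, the chloroplast lipoxygenase that starts jasmonate synthesis, had 336, 342 and 329 CPM in *cdk8*, against 120.1, 107 and 153 CPM in *hsfa2*, whereas the jasmonate factor *ORA59* and the repressor *JAZ7* were lower at under 3 CPM and lost significance in several fits with a library left out. In glucosinolate synthesis the regulators *MYB51* and *MYB76* were lower (-1.91 and -1.52), though *MYB76* lost significance without any 1 of the 6 libraries (adjusted p of 0.061 to 0.117) and with scaling by library size alone (0.0623), and the chain-elongating *MAM3* was higher, with 38.4, 32.4 and 30.0 CPM in *cdk8*, against 16.5, 12.6 and 16.8 CPM in *hsfa2*. *NSP1*, which directs glucosinolate breakdown to nitriles, averaged 506 ± 50.9 CPM in *cdk8* and 231 ± 26.1 CPM in *hsfa2*. *NSP1*, *LOX2* and *MAM3* had log2FCs of 1.01, 0.86 and 1.14 without any HS.

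In phenylpropanoid and lignin synthesis 0 of 17 genes were called higher and 1 lower, and 4 were higher and 2 lower by adjusted p alone. Flavonoid genes had 1 of 15 called higher and 0 lower, with 4 higher by adjusted p alone, where 2.12% of all genes were called higher and 10.4% were higher by adjusted p alone. The flavonoid 3'-hydroxylase *TT7* averaged 3.84 CPM in *cdk8* and 1.41 CPM in *hsfa2*, and the chalcone isomerase *CHI* averaged 14.3 CPM in *cdk8* and 7.40 CPM in *hsfa2*. *PAL1* and *FAH1*, of lignin and sinapate synthesis, had log2FCs of 0.69 and 0.79, whereas the lignin gene *CAD5* was at -1.10. Cytosolic and organellar ribosomal protein genes had 4 of 309 called higher and 0 lower. By adjusted p alone 63 were higher and 4 lower (median 0.21), against 10.4% and 13.6% of all genes. The median was 0.40 with scaling by library size alone. At NHS 77 were higher and 1 lower by adjusted p alone (median 0.30), where 999 and 1047 of all 20847 genes were.

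The highest folds in *cdk8* belonged to genes of seed storage and late embryo development, and these varied strongly between libraries. All 4 seed storage markers were called higher (median log2FC 5.40), but only 2 of them passed the adjusted p without *cdk8* replicate 3 or without any 1 *hsfa2* library, and by annotation text 33 of 110 seed-type genes were higher and 10 lower. The cruciferin *CRC* had 23.9, 432 and 1794 CPM in *cdk8*, against 4.86 to 22.3 CPM in *hsfa2* and 0.252 to 24.6 CPM in Col-0. *cdk8* replicate 1 thus lay near the other groups and replicate 3 far above them. The *CRC* log2FC of 5.64 had an adjusted p of 0.0198, which was 0.108 without *cdk8* replicate 3 and 0.0563, 0.0862 and 0.0598 without *hsfa2* replicates 1, 2 and 3. *SESA2*, a storage albumin, had 43.2, 689.6 and 1584 CPM in *cdk8*, against 7.93, 8.93 and 16.6 CPM in *hsfa2*.

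By the same limits on level and overlap, the 10 genes of largest log2FC upwards, from 5.76 to 7.41, were each lowest in *cdk8* replicate 1 and highest in replicate 3 among the 3 *cdk8* libraries. They comprise *SESA2*, *SESA3*, *SESA4*, *CRU2*, the cupins *AT2G28490* and *AT4G36700*, the oleosin *AT3G01570*, *MEE26*, *AT1G47540* and *AT1G04660*. Summed over the 4 markers, *cdk8* had 64.5, 995 and 3767 CPM at P + T, against 48.7, 19.9 and 43.2 CPM in *hsfa2*, while Col-0 had 8.22, 70.3 and 65.4 CPM. The same sum was 416, 270.0 and 453 CPM in *cdk8* at NHS, against 2.02, 1.52 and 3.42 CPM in *hsfa2*. Counting without the seed-type genes gave 409 higher and 1294 lower genes, and without *cdk8* replicate 3 the counts were 393 and 1215. In bulk RNA fewer cells of a type and less RNA per cell cannot be told apart, and the part of seed tissue or of developmental stage in these values was not tested.

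Other tissue markers moved less. The 9 root markers summed to 113, 159 and 123 CPM in *cdk8*, against 107, 164 and 133 CPM in *hsfa2*, and 1 of them, *COBL9*, was called higher. None of the 32 nuclear photosynthesis genes was called. By adjusted p alone 11 were lower and 1 higher (median -0.36), against 13.6% and 10.4% of all genes. That count of 11 became 18 with replicate number as a block and 20 with the 6 libraries alone. *LHCA4*, a light-harvesting protein, had 4419, 4404 and 4478 CPM in *cdk8*, against 6476, 7081 and 6645 CPM in *hsfa2*, and the Rubisco subunit gene *RBCS1B* averaged 1237 CPM in *cdk8* and 719 CPM in *hsfa2*. The difference was of similar size after T for both genes (-0.57 and 0.82).

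Genes whose mutant difference itself depended on priming were found on both sides. *FTSH6*, *MIPS2*, *SRF2*, *PTR5*, *SRO5*, *AT3G09440* and *SULTR3;4* overlap another annotated gene, and their counts may hold reads of it. *AT5G53680*, an RNA-binding protein, had a log2FC of -3.60 at T, with means of 5.78 CPM in *cdk8* and 70.4 CPM in *hsfa2*, and of -1.45 at P + T, with 31.1, 26.1 and 25.4 CPM in *cdk8* and 85.3, 72.4 and 67.2 CPM in *hsfa2*. The difference of 2.16 ± 0.29 passed the test (adjusted p = 0.000134). *AT5G52050*, a MATE efflux transporter, was lower in *cdk8* at T (3.27 CPM in *cdk8* and 9.99 CPM in *hsfa2*) and level at P + T (8.31 CPM in *cdk8* and 7.82 CPM in *hsfa2*). For *HSFA1E* and *MYB86* the mutants differed little at T and widely at P + T.

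*ABCG25*, an exporter of abscisic acid, had a log2FC of 0.09 between the mutants at T. At P + T it averaged 11.8 ± 1.15 CPM in *cdk8* and 32.8 ± 3.07 CPM in *hsfa2* (SD, n = 3 each), with 24.0 ± 2.00 CPM in Col-0. The change in log2FC was -1.57 ± 0.17 (adjusted p = 1.86e-06). *PUB19*, a ubiquitin ligase of abscisic acid and drought responses, had 2.12, 3.49 and 1.46 CPM in *cdk8*, against 35.3, 33.6 and 29.0 CPM in *hsfa2* at P + T, and means of 2.42 CPM in *cdk8* and 10.9 CPM in *hsfa2* at T. The amino acid exporter *UMAMIT11* and the sulfate transporter *SULTR3;4* showed changes of -2.01 and -1.74. Calls for *PUB19*, *UMAMIT11*, *SULTR3;4* and *AT5G52050* were lost when only the 12 libraries concerned were fitted (adjusted p from 0.0684 to 0.247), whereas *HSFA1E*, *MYB86*, *AT5G53680* and *ABCG25* passed under each alternative run.

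**Figure D5:**
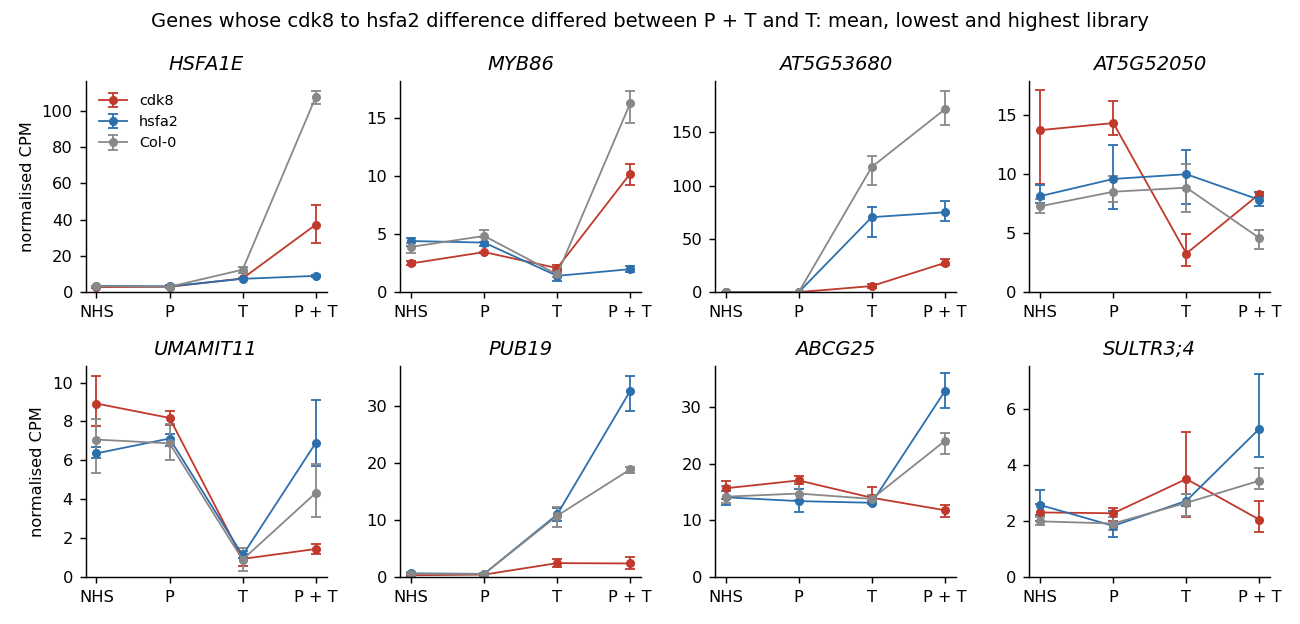
Mean normalised CPM in *cdk8*, *hsfa2* and Col-0 at NHS, P, T and P + T for 8 genes whose *cdk8* to *hsfa2* difference changed between T and P + T; bars span the lowest and highest of 3 libraries. At P + T *HSFA1E* and *MYB86* are lowest in *hsfa2*, higher in *cdk8* and highest in Col-0, whereas *ABCG25* and *PUB19* are low in *cdk8* and high in *hsfa2* and Col-0.

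Set against unstressed seedlings, the mutant difference changed at many more genes. The log2FC of *cdk8* over *hsfa2* was larger at P + T than at NHS for 104 genes and smaller for 617 (0.499% and 2.96% of genes tested). Among early HS genes 258 of 1657 were smaller (15.6%) and 7 larger. *DIP2*, annotated as an E3 ubiquitin ligase, averaged 0.908 CPM in *cdk8* and 14.7 CPM in *hsfa2* at P + T, and 0.0421 CPM in *cdk8* and 0.0253 CPM in *hsfa2* at NHS. For *FTSH6*, *HSFA7B* and *DIP2* this change lost significance when *cdk8* NHS replicate 3 was left out (adjusted p of 0.232, 0.429 and 0.117), each gene being near 0 at NHS. For *DIP2* it was also lost without *cdk8* NHS replicate 2 (edgeR adjusted p = 0.0945) and without *hsfa2* NHS replicate 2 (0.053).

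Promoters were read for motifs as a description of the genes called, in the 250 bases before the annotated 5' end of each gene in the RefSeq annotation of TAIR10.1. A heat shock element of 3 units (GAANNTTCNNGAA or TTCNNGAANNTTC on either strand) stood in 18 of 1304 promoters of genes lower in *cdk8* (1.38%), in 0 of 442 promoters of higher genes and in 88 of 20846 promoters of all genes (0.422%). Among early HS genes it was in 13 of 401 lower genes (3.24%) and in 18 of 1221 genes without a call (1.47%). The 2-unit form GAANNTTC, which overlaps the longer one, was in 11.6% of lower, 9.50% of higher and 9.24% of all promoters. Drought-responsive elements bound by DREB factors (ACCGAC or GCCGAC, either strand) were in 12.5% of lower, 4.52% of higher and 7.76% of all promoters. Abscisic acid response elements (ACGTGGC or ACGTGTC) were in 8.51%, 14.5% and 7.40% of the same sets, and the higher set contains the seed-type genes. W-boxes (TTGACC or TTGACT), bound by WRKY factors, were in 26.8%, 28.3% and 28.2%, and the letters CGCGTT in 43 of 1304, 8 of 442 and 581 of 20846 promoters. These motifs were chosen after the gene lists were seen and were not tested.

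The heat shock elements of 3 early HS genes that are lower in *cdk8* are shown with the motif in capitals. Each is read 5' to 3' along the strand of its gene, and the spacing of its units is fixed by the motif searched. They lie at chr3:23399071-23399099 (forward strand), chr5:763481-763506 (reverse strand) and chr1:22198081-22198109 (forward strand).
HSFA7B: agtataagTTCCGGAACTTTCtaagaaga
DIP2: acaagaggTTCTAGAATATTCgtgtt
PUB19: catgcacgGAACCTTCACGAAacagttgg

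Drought-responsive elements of 4 genes lower in *cdk8* are shown in the same way, with the element in capitals, which in *GOLS2* and *RS5* lies on the opposite strand. They lie at chr2:8985755-8985780 (forward), chr5:25097880-25097905 (forward), chr1:21207431-21207456 (forward) and chr5:16161287-16161312 (forward).
ERF53: gccgcggttaGCCGACcatactatca
SRO5: aaattgcaaaACCGACggtaacagaa
GOLS2: acgtttagtaGTCGGTcgtatttaat
RS5: aaattacattGTCGGTaggtcaatta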

How the data were processed

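The authors isolated total RNA of seedlings, made oligo-dT libraries, sequenced them as 150 bp pairs and aligned them with STAR 2.7.10a to TAIR10. The deposited values are whole-number counts of read pairs per gene, made by the authors with STAR's gene counting. Whether the counting used strand is not given in the sources used here, so reads of a gene and an antisense gene may not be told apart. Multi-mapping and ambiguous pairs are left out of these counts. Comparisons were made with edgeR 4.0.16 (R 4.3.3): low genes were removed by filterByExpr (minima of 10 per library and 15 in total, leaving 20847 of 36632), TMM scaling, 1 quasi-likelihood model of all 12 groups of genotype and treatment over 36 libraries, and Benjamini-Hochberg adjustment over all genes tested. Log2FC is *cdk8* minus *hsfa2*; SE is the absolute log2FC divided by the square root of F. Heat classes came from calls in Col-0: +/++ up in T over NHS, P + T over P and P + T over T; 0/+ up in the last 2 and not in T over NHS; early HS up in T over NHS and not in P + T over T; heat-repressed down in T over NHS and P + T over P. Gene names, products and positions are from RefSeq TAIR10.1.

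Named genes were *CDK8*, *HSFA2*, the 5 memory genes, *HSP70* and *HSP101*; in each direction, the 10 largest calls without overlap between libraries, the 5 most abundant calls, the 2 largest of each list by adjusted p, the 2 largest calls of each heat class and the 4 largest changes between treatments by adjusted p. Folds over all genes, classes and changes were ranked among genes with at least 5 CPM in the higher mutant. Other list members are named to account for a count and were chosen after their values were seen. Of the list entries, 390 were matched by symbol or synonym, 19 by product, and 8 were dropped for want of a match. The members and lists were chosen with earlier results of these data known. Same-numbered libraries of the 2 mutants deviated together at P + T (correlations of 0.346 to 0.457), as at the other treatments, so a fit with replicate number as a block was run beside the unblocked fit. Alternatives were DESeq2 1.42.0, its size factors, library size alone, other filters, glmTreat, smaller fits and each library left out in turn. Seed-type genes were left out of the counts as an alternative chosen after seeing the data. The tests were first tested on simulated data.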

Additional observations from a re-analysis of the deposited data

Results flagged for a closer look

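The difference between *cdk8* and *hsfa2* depended on treatment for the following genes, by a test of the change in log2FC itself (edgeR adjusted p below 0.05). Between T and P + T it shifted upwards by 2.16 for *AT5G53680*, 2.00 for *HSFA1E*, 1.80 for *MYB86*, 1.69 for *AT5G52050*, 1.58 for *LPAT5* and 1.13 for *MIPS2*. The shift was -2.01 for *UMAMIT11*, -1.74 for *SULTR3;4*, -1.61 for *PUB19*, -1.57 for *ABCG25*, -1.38 for *HB-12* and -1.32 for *OZF2*. Of these, *MIPS2* and *LPAT5* are inositol and lipid synthesis genes with memory in Col-0, and *HB-12* is a 0/+ gene that was lower in *cdk8*. Calls for *UMAMIT11*, *SULTR3;4*, *PUB19* and *AT5G52050* were lost when only the 12 libraries concerned were fitted, and in several fits with a library left out.

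Between NHS and P + T the change was 3.41 for *SRF2*, 3.19 for *MYB86*, 2.37 for *HSFA1E* and 2.25 for *AT4G14170*. It was -9.90 for *AT2G04135*, -5.50 for *HSFA7B*, -5.42 for *FTSH6* and -4.67 for *DIP2*, genes whose NHS level was close to 0, so that the size of their change rests on few reads.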

How the results depend on the processing

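For *cdk8* against *hsfa2*, genes higher and lower numbered 87 and 494 at P + T, 115 and 467 at T, 66 and 42 at P and 30 and 37 at NHS in glmTreat against a log2FC of 1. With the adjusted p alone they numbered 2175 and 2827, 2191 and 2627, 910 and 911, and 999 and 1047 in the same order, and the changes between P + T and T or NHS had 35 and 391 genes larger. Library size alone gave 706 higher at P + T, 821 at T and 200 larger between NHS and P + T, and a mean of at least 1 CPM gave 289, 266, 228 and 187 higher at P + T, T, P and NHS. The 13 genes with a smaller difference at P + T than at T were 21 in DESeq2, 20 with the replicate block and 2 with only the libraries compared. The block changed the number past the adjusted p alone by more than 1.5 times in 4 list counts (flavonoid lower 2, glucosinolate higher 3 and lower 6, photosynthesis lower 18) and, beside the 20 just given, in no other count. With 1 library left out, higher and lower genes ranged over 373 to 428 and 1200 to 1347 at P + T, 412 to 475 and 1071 to 1193 at T, 235 to 385 and 207 to 312 at P, and 234 to 352 and 268 to 328 at NHS. Larger and smaller changes ranged over 15 to 22 and 3 to 14 between T and P + T, and 93 to 131 and 506 to 661 between NHS and P + T. The cause of these shifts was not tested, except that stricter tests call fewer genes by construction. Each mutant rests on 1 allele and 3 libraries, and genes below 1 CPM in the T and P + T libraries on fewer than 30 read pairs a library.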
